A study of Caenorhabditis elegans with 12 samples.

Results

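The nas genes of Caenorhabditis elegans encode astacin metalloproteases, and their mRNA was followed here through heat shock and through mutation of affl-2. Members were all genes whose symbol begins with nas-, found by matching the sequence names in the deposited tables to gene symbols. They are 38 of the 22010 genes in the tables, carrying 37 symbols, since nas-2 stands for 2 gene copies. Of them 37 are protein-coding, and nas-40 is annotated as a pseudogene. RNA came from whole L4 animals in 4 groups of 3 libraries, which were wild type N2 and strain PS8060 carrying affl-2(sy975), each either unheated or heat shocked. For every library 250 L4 animals were picked to a fresh plate seeded with OP50 bacteria, which was sealed with parafilm and kept for 30 min at 20 °C or, for heat shock, in a 33 °C water bath. The mutant is 1 strain, its sy975 lesion is not described in the labels, and these do not say whether replicates came from separate cultures. p-values therefore measure only the spread between these libraries.

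Astacins are zinc-dependent proteases named after a digestive enzyme of crayfish. Most are secreted, with a prodomain that has to be removed before the enzyme is active, and many family members carry further domains behind the protease. In nematodes they cut extracellular proteins, among them the collagens and other components of the cuticle, which is shed and rebuilt at each larval molt. NAS-36 and NAS-37 are needed to shed the old cuticle, NAS-38 acts in the sleep-like state that accompanies the molt, and NAS-6 and NAS-7 act in the pharynx, where NAS-6 shapes the grinder. NAS-39 is the nematode relative of the BMP1 and tolloid proteases. Several astacins bear other names and are no members by symbol, namely the hatching enzyme gene hch-1, dpy-31, whose product processes the collagen SQT-3, and toh-1. AFFL-2, the product of the gene mutated in the other strain, belongs to the AF4/FMR2 family of transcription elongation factors.

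Libraries held 18 to 22.7 M estimated counts, of which the nas genes took 0.04 to 0.0686%. affl-2 mRNA stood at 20.9 to 25 CPM (counts scaled to a common depth) in unheated N2, 25.2 to 30.0 in heated N2, 15.2 to 19.6 in unheated affl-2 and 16.3 to 19.2 in heated affl-2. With the lesion not given, these levels cannot check a genotype. For unheated affl-2 replicates 1 and 2 the description label and the deposited file name each other's library. Both belong to the same group, so group comparisons are the same either way, and the replicate numbers below follow the titles. Unheated affl-2 replicate 1 was the lowest of its group for 16 of the 30 nas genes tested and replicate 3 the highest for 18. Among the heated libraries, N2 replicate 3 was the highest of its group for 19 and replicate 2 the lowest for 16, and affl-2 replicate 1 was the lowest for 17. All 9 lists of tissue markers examined (hypodermis, pharynx, intestine, body wall muscle, neurons, glia, germline, sperm and excretory system) were read in every group, with none of their genes at 0 throughout a group.

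Levels differed widely between members. Compared per length, in the deposited TPM (abundance corrected for transcript length and library depth), nas-11 had the highest mean level over all 12 libraries (35.9 TPM), followed by nas-7 (34.4), nas-15 (23.7), nas-38 (23.4), nas-36 (20.1) and nas-30 (20). The first places were set by the mutant libraries: nas-7 lay above nas-11 in N2, at 34.9 ± 4.67 against 26.3 ± 1.9 TPM unheated (SD, n = 3) and 37.1 ± 3.18 against 17 ± 0.856 TPM heated, and nas-11 lay above nas-7 in affl-2, at 61 ± 3.37 against 34.1 ± 9.84 TPM unheated and 39.5 ± 1.03 against 31.3 ± 5.22 TPM heated. The lowest tested member was nas-24, with a mean of 0.371 TPM. Of the 38 members, 30 had enough counts to be tested. The 8 set aside were both copies of nas-2 (2.5 estimated counts each over all 12 libraries, divided equally between the copies), nas-3 (52), nas-19 (4), nas-40 (2), and nas-16, nas-17 and nas-18, which had 0 counts in every library. A count of 0 allows up to 3 counts in a library, which is 0.133 to 0.179 CPM here, counting error only. nas-3 was read in 11 of 12 libraries, at no more than 0.564 CPM.

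**Figure D1:**
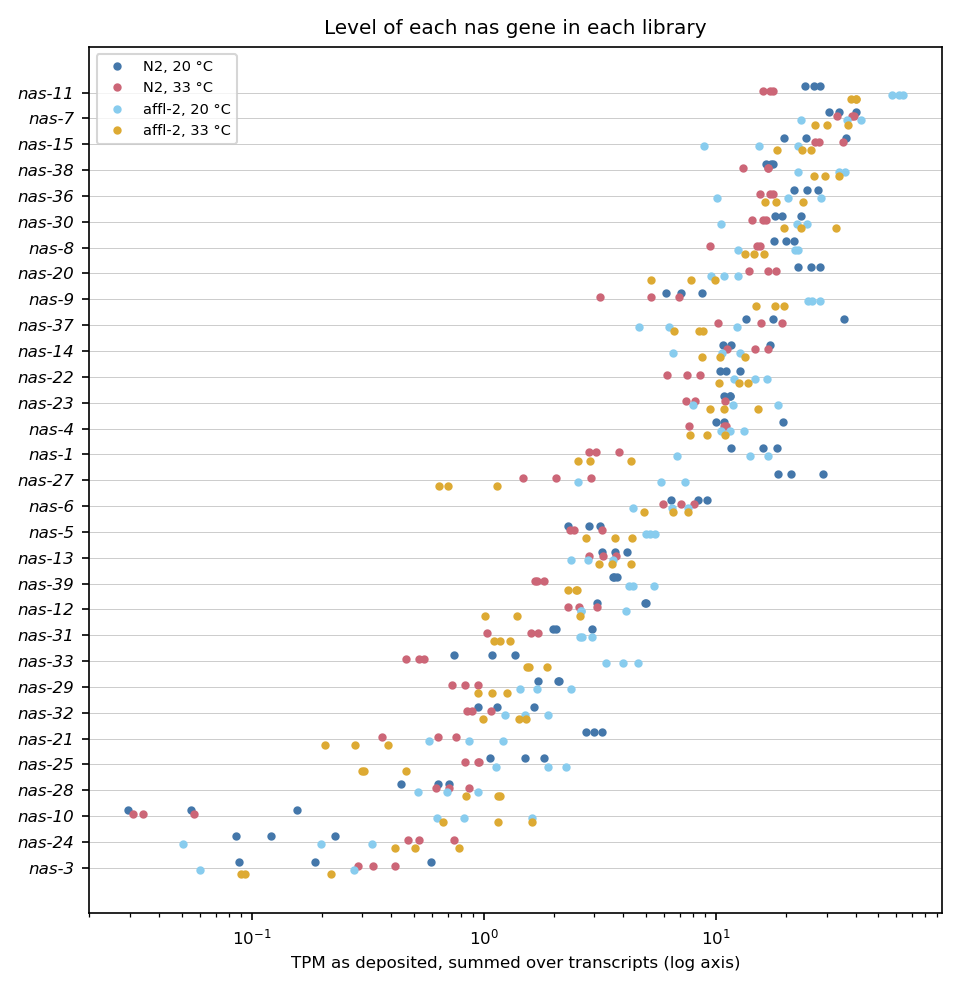
Each point is the deposited TPM of 1 library (log axis) for each nas gene with enough counts to be tested and for nas-3, ordered by mean level, with colours for the 4 groups and values of 0 not shown. nas-11 has the highest mean over all libraries, those of nas-27 run from 29 TPM in unheated N2 down to 0.642 TPM in heated affl-2, with heated N2 and unheated affl-2 overlapping between them, and the N2 libraries of nas-10 lie to the left of all affl-2 libraries.

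Heat shock of N2 lowered more nas genes than it raised. Of the 30 tested, 7 fell (nas-27, nas-21, nas-1, nas-29, nas-39, nas-33 and nas-11) and 1 rose (nas-24), by edgeR's quasi-likelihood test with Benjamini-Hochberg adjustment over all 15386 genes tested and a threshold of 0.05. Across all genes tested 12% fell and 9.52% rose. nas-24 passed the filter on low counts only through the heated groups, where it is high, so its call is no independent support. The median log2 change of the members was −0.42, against −0.01 for all genes tested, and 73.3% of members (22) against 50.7% of all genes had a value below 0. With library size alone as scaling 10 members fell in N2, adding nas-20, nas-22 and nas-31. That scaling moved the median of all genes by −0.182 in this comparison.

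nas-27 fell most. The gene (T23F4.4) lies on the minus strand of chromosome II, from 1175925 to 1179323 in build WBcel235. Its mRNA stood at 33.1, 27.2 and 47.3 CPM in the unheated N2 libraries and at 3.42, 2.39 and 5.35 CPM in the heated ones. Every heated library lay below every unheated one, by a log2 change of −3.26 ± 0.40 (standard error, adjusted p = 0.000111), or 9.6-fold. In the mutant, nas-27 stood at 3.2, 7.86 and 9.95 CPM without heat and at 0.978, 1.54 and 1.12 CPM after it. The heated mutant libraries were again all below the unheated ones, at −2.53 ± 0.45 (adjusted p = 0.00196). The level of nas-27 in unheated mutants overlapped that of heated N2, and heated mutants held the lowest level of the 4 groups. The difference between the genotypes in the log2 change with heat was 0.73 ± 0.61 (adjusted p = 0.939).

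nas-1 (F45G2.1, chromosome III, 13405804 to 13409292) stood at 16.2, 13.1 and 10.6 CPM in N2 at 20 °C and at 3.59, 2.57 and 3.13 CPM in heated N2. It fell by 2.1 ± 0.34 on the log2 scale (adjusted p = 0.000618). In the mutant the values were 4.75, 12.6 and 10.5 CPM without heat and 2.44, 1.93 and 3.83 CPM with it, a fall of 1.76 ± 0.34 (adjusted p = 0.00237). The heated groups of the genotypes overlapped, and neither the unheated nor the heated mutants differed from N2 past the threshold (−0.51 ± 0.31, adjusted p = 0.295, and −0.18 ± 0.36, adjusted p = 0.736).

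nas-21 (T11F9.5, chromosome V, 11472564 to 11473899) was read at 3.44, 3.48 and 3.3 CPM in N2 at 20 °C and at 0.448, 0.896 and 0.853 CPM in heated N2. That is a fall of 2.21 ± 0.28 (adjusted p = 5.8e-05) without overlap. Mutants held 1.12, 0.852 and 0.574 CPM before and 0.311, 0.386 and 0.242 CPM after heat shock, a fall of 1.42 ± 0.36 (adjusted p = 0.0118). As for nas-27, unheated mutants and heated N2 overlapped. nas-21 and nas-27 are the only 2 members that passed as lower in all 4 comparisons of a pair of groups. These comparisons share libraries: unheated N2 serves both heat shock in N2 and the genotype comparison at 20 °C, and the other groups likewise serve 2 comparisons each.

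nas-39, the tolloid relative (F38E9.2, chromosome X, 16456927 to 16471333), fell from 13.3, 12 and 13.4 CPM to 6.28, 6.21 and 7.51 CPM in N2, by 0.95 ± 0.15 (adjusted p = 0.000282). It fell from 12, 16.4 and 13.3 CPM to 8.62, 7.67 and 8.29 CPM in the mutant, by 0.76 ± 0.14 (adjusted p = 0.00152). The groups did not overlap in either genotype, and the unheated levels of the genotypes did. Of its 3480 exonic bases, 276 are shared with F38E9.1 on the same strand, a gene that itself had log2 changes with heat of −0.44 ± 0.13 in N2 (adjusted p = 0.023) and −0.2 ± 0.12 in affl-2 (adjusted p = 0.271). nas-11 (K11G12.1, chromosome X, 6713577 to 6716357), fell from 45.2, 48.9 and 51.1 CPM to 31.1, 32.9 and 38.4 CPM in N2 (−0.5 ± 0.11, adjusted p = 0.00457). In affl-2 it fell from 91.4, 92.0 and 102 CPM to 72.6, 61.7 and 75.4 CPM (−0.45 ± 0.11, adjusted p = 0.00966). The level of nas-11 was thus higher in the mutant throughout, and the genotypes' changes with heat differed by 0.06 ± 0.16 (adjusted p = 0.967). nas-33 (K04E7.3, chromosome X, 6451698 to 6455257) fell from 1.57, 2.68 and 2.36 CPM to 1.23, 1.14 and 1.14 CPM in N2 (−0.91 ± 0.25, adjusted p = 0.0171) and from 7.76, 6.06 and 7.12 CPM to 3.11, 2.85 and 3.98 CPM in affl-2 (−1.08 ± 0.2, adjusted p = 0.00169). In N2 the call for nas-33 was lost when unheated replicate 2 (−0.74, adjusted p = 0.072), unheated replicate 3 (−0.85, 0.0569) or heated replicate 2 (−0.89, 0.0581) was left out.

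**Figure D2:**
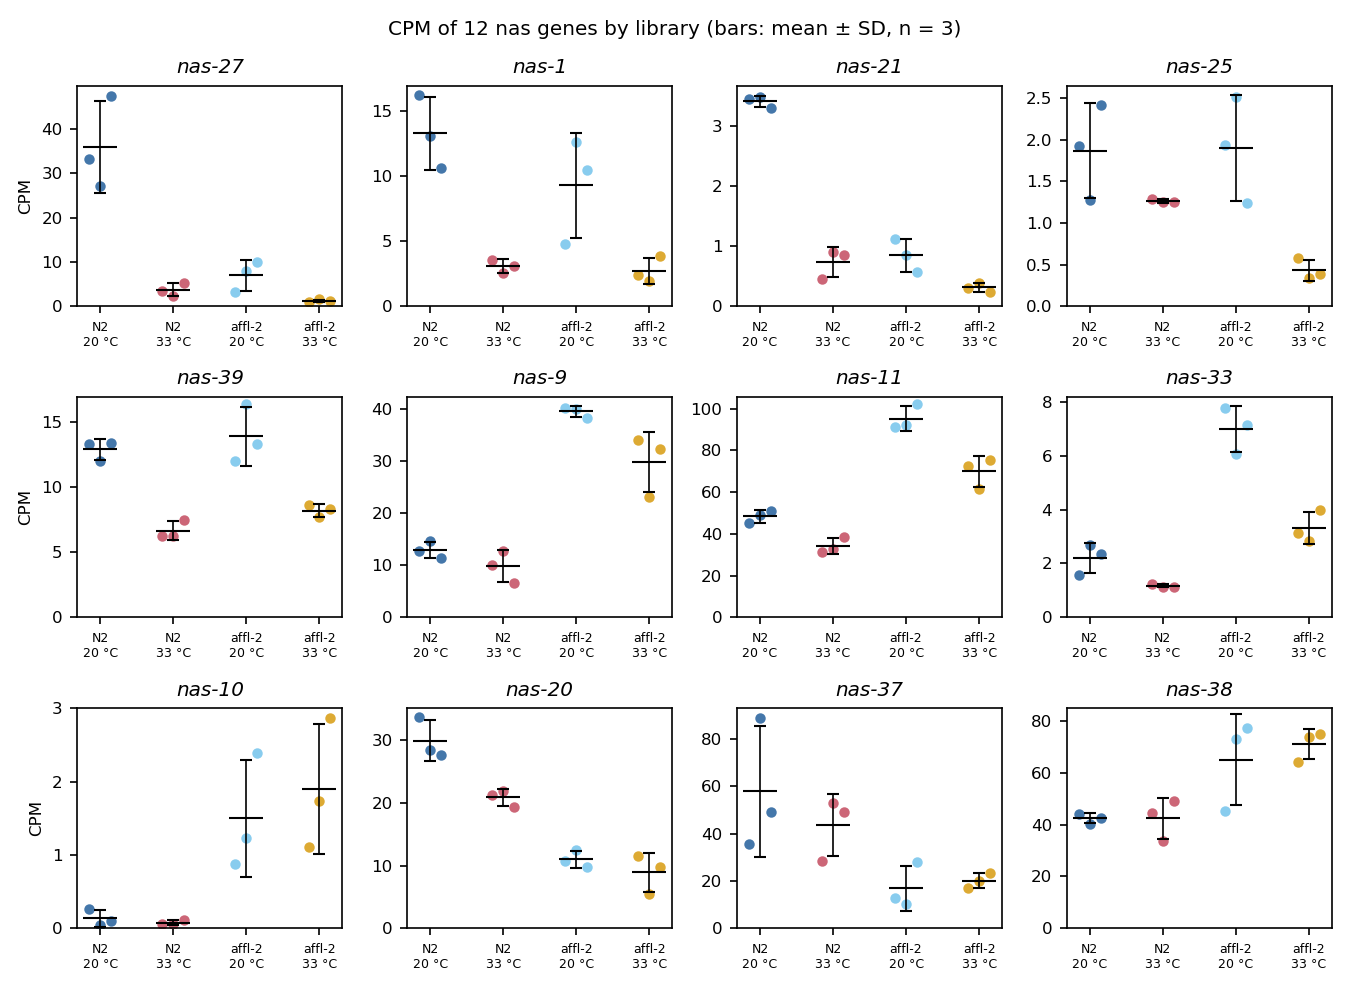
CPM of 12 nas genes in each library, with group mean and SD (n = 3), each panel on its own linear axis from 0. nas-27, nas-1 and nas-21 drop from unheated to heated N2, nas-9, nas-11, nas-33 and nas-10 stand higher in affl-2 at both temperatures, and nas-20 and nas-37 stand lower.

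In affl-2 mutants heat shock lowered 8 of the 30 members and raised 1, where 10.8% of all genes tested fell and 10.6% rose. The 1 that rose was again nas-24, with the same limit. Of the 8, 6 also fell in N2 (nas-1, nas-11, nas-21, nas-27, nas-33 and nas-39). The 2 heat shock comparisons share no library but share the fit and its spread per gene, so they are not independent. How many of all genes fell in both was not counted. The median log2 change of the members was −0.11, against 0.03 for all genes. With library size alone as scaling 9 members fell in the mutant, adding nas-29, and the median of all genes moved by −0.142. The falls that passed in the mutant and not in N2 were those of nas-25 and nas-31, and the fall that passed in N2 and not in the mutant was that of nas-29.

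nas-25 (F46C5.3, chromosome II, 8826069 to 8828215) stood at 1.94, 2.51 and 1.24 CPM in unheated mutants and at 0.578, 0.338 and 0.388 CPM in heated ones. No library overlapped, and the fall was 2.1 ± 0.35 (adjusted p = 0.000652). F46C5.2, which shares 20 exonic bases with nas-25 on the other strand and had a mean of 3.15 CPM, also fell with heat, by 0.98 ± 0.2 in affl-2 (adjusted p = 0.00258) and 0.74 ± 0.19 in N2 (0.0126). In N2 the levels were 1.92, 1.27 and 2.41 CPM before and 1.29, 1.25 and 1.25 CPM after heat shock, which overlapped (−0.56 ± 0.31, adjusted p = 0.223). The test of the difference between genotypes gave −1.54 ± 0.47 with an unadjusted p of 0.00532 and an adjusted p of 0.267, so it did not pass. nas-31 (F58B4.1, chromosome V) stood at 5.09, 4.83 and 4.64 CPM in unheated and 2.49, 2.46 and 2.52 CPM in heated mutants, a fall of 0.96 ± 0.21 (adjusted p = 0.00445). In N2 it stood at 4.29, 5.73 and 4.38 CPM and then 3.53, 2.27 and 4.09 CPM (−0.54 ± 0.21, adjusted p = 0.0782), with no overlap but short of the threshold. nas-29 (F58A6.4, chromosome II) fell in N2 from 3.36, 3.85 and 4.23 CPM to 1.51, 1.67 and 2.16 CPM (−1.09 ± 0.24, adjusted p = 0.0039). In the mutant its values were 2.23, 2.84 and 3.97 CPM and 1.78, 2.12 and 2.13 CPM (−0.58 ± 0.23, adjusted p = 0.087), also without overlap, and it passed (adjusted p = 0.0439) in a fit with replicate number as a block, in which numbers 1 and 2 of unheated affl-2 were exchanged. For nas-31 and nas-29 the difference between genotypes was −0.42 ± 0.29 (adjusted p = 0.905) and 0.51 ± 0.33 (adjusted p = 0.9).

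The member that rose with heat, nas-24 (F20G2.4, chromosome V, 13769386 to 13771329), was among the weakest expressed. It stood at 0.134, 0.235 and 0.0984 CPM in N2 at 20 °C and at 0.617, 0.538 and 0.967 CPM in heated N2, which is 10 against 37 counts in all. No unheated library of either genotype held more than 6 counts, so nas-24 passed the filter on low counts only through the heated groups, where it is high. With only the 6 N2 libraries or only the 6 affl-2 libraries in the fit it was not tested. The log2 change was 2.14 ± 0.53 (adjusted p = 0.00968), and the ratio of summed counts scaled for depth was 4.54, with an exact 95% counting interval of 2.21 to 10.2. In affl-2 it rose from 0.291, 0.189 and 0.0478 CPM to 0.444, 0.482 and 0.873 CPM (11 against 38 counts, 1.73 ± 0.52, adjusted p = 0.0286). Heated libraries lay above unheated ones in both genotypes. The call in the mutant was lost with DESeq2 (1.75, adjusted p = 0.0585) and without unheated affl-2 replicate 2 (1.78, 0.0691), unheated affl-2 replicate 3 (1.26, 0.0988) or heated affl-2 replicate 3 (1.37, 0.118). Under that replicate block 3 members rose with heat in the mutant in place of 1, since nas-13 (0.51 ± 0.17, adjusted p = 0.0368) and nas-15 (0.75 ± 0.24, adjusted p = 0.0422) also passed. Without unheated affl-2 replicate 3 the members that rose numbered 4 (nas-6, nas-13, nas-15 and nas-28), and without unheated replicate 2 or heated replicate 3 of affl-2 they numbered 0.

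No member passed the test of the difference between the genotypes in their response to heat (interaction), in either direction. Among all genes tested 0.0455% passed as higher and 0.669% as lower. At an unadjusted p under 0.05 edgeR listed 1 member, nas-25, and DESeq2 listed 2 members and passed 0. The count at an unadjusted p under 0.05 was 7 without unheated affl-2 replicate 3 and 3 under the replicate block, with 0 passing in either. The share of all genes at that cut-off was not counted, so nothing about the family is read from these counts. The members' interaction values ran from −1.54 (nas-25) to 1.16 (nas-10, ± 1.12), with a median of 0.22 against 0.04 for all genes.

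**Figure D3:**
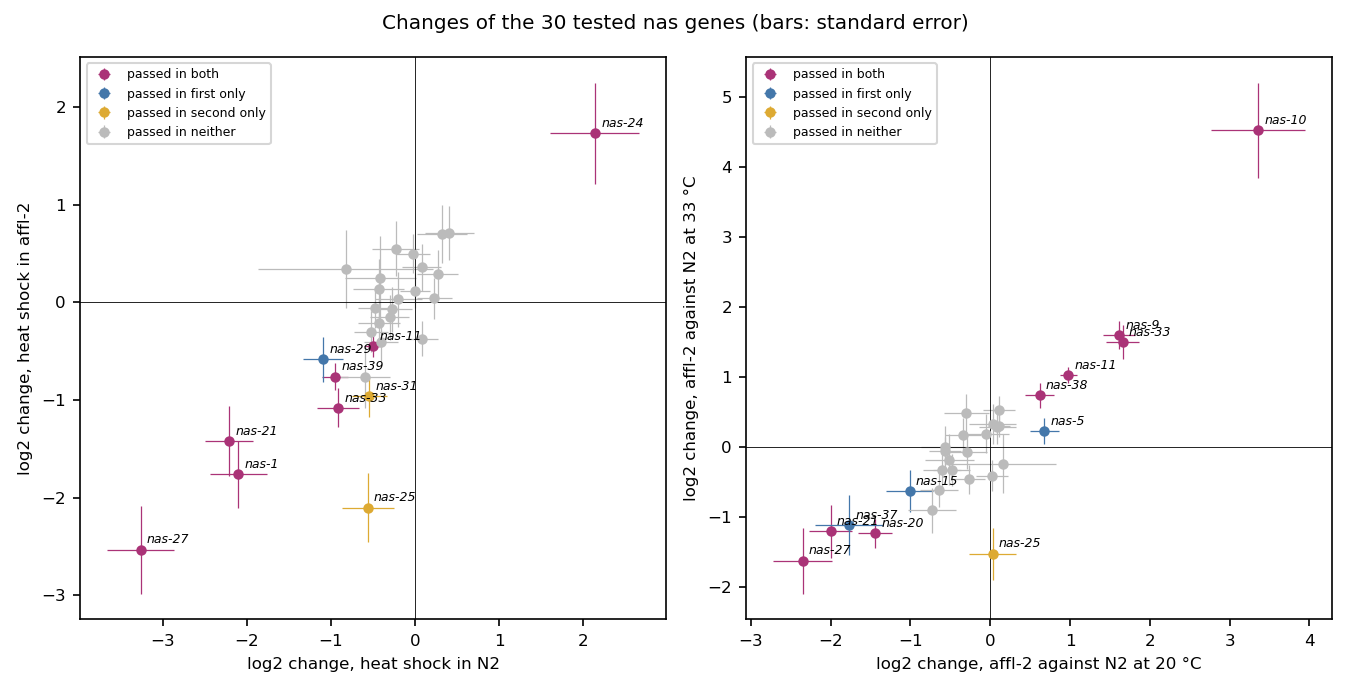
Log2 changes of the 30 tested nas genes, with standard errors as bars: on the left heat shock in N2 (x) against heat shock in affl-2 (y), on the right affl-2 against N2 at 20 °C (x) against the same at 33 °C (y). Colours show in which comparison a gene passed, first meaning the x axis; nas-27, nas-1 and nas-21 lie at the lower left of the heat panel, nas-24 alone at its upper right, and nas-10 at the upper right of the genotype panel.

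Between genotypes the nas genes moved in both directions. At 20 °C 6 members were higher in affl-2 (nas-10, nas-33, nas-9, nas-11, nas-5 and nas-38) and 5 lower (nas-27, nas-21, nas-37, nas-20 and nas-15), where 6.69% of all genes tested were higher and 7.29% lower. At 33 °C 5 were higher (nas-10, nas-9, nas-33, nas-11 and nas-38) and 4 lower (nas-27, nas-25, nas-20 and nas-21), where 10.1% and 9.57% of all genes were. Both counts of higher members include nas-10, which passed the filter on low counts only through the mutant groups, where it is high. Its calls are therefore no independent support. With library size alone as scaling the split at 33 °C was 7 higher and 3 lower, and that scaling moved the median of all genes by 0.184 at 20 °C and 0.224 at 33 °C. The comparisons at 20 °C and at 33 °C share no library, and 5 members, nas-10 among them, passed as higher and 3 as lower in both. Both comparisons come from the same fit with a shared spread per gene, and replicates appeared paired across groups (see the processing). They are therefore not independent, and the share of all genes that passed in both was not counted. Without unheated affl-2 replicate 3 the lower members at 20 °C numbered 9, adding nas-6, nas-13, nas-14 and nas-36, while they numbered 3 (nas-20, nas-21 and nas-27) without unheated N2 replicate 2 or without unheated affl-2 replicate 1 or 2. At 33 °C they numbered 2 (nas-20 and nas-25) without heated N2 replicate 3, heated affl-2 replicate 1 or heated affl-2 replicate 3.

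Among the lower members, nas-27 had no overlap between the unheated genotypes, with the highest mutant library at 9.95 CPM and the lowest N2 library at 27.2 CPM, and differed by −2.35 ± 0.37 (adjusted p = 0.00176). After heat shock the difference was −1.62 ± 0.47 (adjusted p = 0.0342), still without overlap. The call at 33 °C was lost without heated N2 replicate 1 (−1.68, adjusted p = 0.0693) or 3 (−1.25, 0.107), without heated affl-2 replicate 1 (−1.48, 0.126), 2 (−1.84, 0.0511) or 3 (−1.57, 0.106), and without the filter on low counts (−1.61, 0.0622). nas-21 differed by −2 ± 0.27 at 20 °C (adjusted p = 0.000334) and by −1.2 ± 0.38 at 33 °C (adjusted p = 0.0381), which rests on 20 counts in heated affl-2 against 38 in heated N2. The call at 33 °C was lost without heated N2 replicate 2 (−1.04, adjusted p = 0.135) or 3 (−1.06, 0.101), without heated affl-2 replicate 1 (−1.2, 0.112) or 3 (−1.06, 0.115), without unheated N2 replicate 1 (−1.21, 0.0505) or 3 (−1.21, 0.0514), with library size alone (−0.98, 0.06) and with DESeq2 (−1.24, 0.0502).

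nas-20 (T11F9.3, chromosome V, minus strand, 11470925 to 11472309) stood at 33.7, 28.4 and 27.7 CPM in N2 at 20 °C and at 10.7, 12.5 and 9.75 CPM in unheated affl-2. The groups were far apart, with a log2 difference of −1.44 ± 0.21 (adjusted p = 0.000494). After heat shock N2 held 21.3, 21.9 and 19.4 CPM and the mutant 11.6, 5.4 and 9.7 CPM (−1.23 ± 0.21, adjusted p = 0.00119). The call for nas-20 held in every alternative at both temperatures. With heat nas-20 did not pass in N2 in the main fit (−0.52 ± 0.2, adjusted p = 0.0805). It passed as lower under the replicate block of exchanged numbers (−0.51 ± 0.16, adjusted p = 0.0305), and not under a block of the title numbers. It also passed as lower with library size alone, with only the 6 N2 libraries in the fit, and without heated affl-2 replicate 2.

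nas-37, the molting protease gene (C17G1.6, chromosome X, minus strand, 9944844 to 9949063), stood at 35.7, 88.9 and 49.1 CPM in N2 at 20 °C and at 12.7, 10.4 and 27.8 CPM in unheated affl-2. The lowest N2 library lay above the highest mutant library, and the difference was −1.77 ± 0.43 (adjusted p = 0.0231), or 3.41-fold. After heat shock N2 held 28.6, 52.8 and 49.2 CPM and the mutant 17.1, 20.1 and 23.3 CPM, again without overlap, but the difference of −1.11 ± 0.43 did not pass (adjusted p = 0.0918). It did pass at −1.12 with only the 6 heated libraries in the fit (adjusted p = 0.00702) and at −1.11 without unheated affl-2 replicate 3 (0.0303). The call at 20 °C was lost with only the 6 unheated libraries in the fit (−1.75, adjusted p = 0.121), without unheated N2 replicate 2 (−1.32, 0.0589), and without unheated affl-2 replicate 1 (−1.56, 0.086) or 2 (−1.51, 0.0785). Heat shock gave −0.41 ± 0.42 in N2 (adjusted p = 0.541) and 0.25 ± 0.43 in affl-2 (adjusted p = 0.725).

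The libraries of nas-37 spread widely within the unheated groups, and so did those of some, not all, other genes of the molting cycle. The first 3 named here were chosen after their values were seen. mlt-11, which encodes a large secreted protein needed for molting, stood at 59.0, 329 and 88.3 CPM in unheated N2 replicates 1 to 3, with replicate 2 the highest as for nas-37. In unheated affl-2 mlt-11 stood at 11.3, 8.05 and 69.5 CPM, with replicate 2 the lowest and replicate 3 the highest, again as for nas-37. noah-1, a gene for an apical matrix protein, was at 51.8, 237 and 69.3 CPM in N2 at 20 °C and at 9.26, 5.45 and 53.8 CPM in unheated affl-2. The furrow collagen gene dpy-7 was at 12.9, 74.6 and 18.8 CPM in N2 at 20 °C and at 1.21, 0.9 and 11.8 CPM in unheated affl-2. These 3 genes did not pass between genotypes at 20 °C (−2.42 ± 0.9, adjusted p = 0.112 for mlt-11, −2.39 ± 0.89, 0.113 for noah-1 and −2.94 ± 1.02, 0.0947 for dpy-7). The peroxidase gene mlt-7 had another order, at 175, 139 and 161 CPM in unheated N2, with replicate 2 the lowest, and 93.5, 154 and 145 CPM in unheated affl-2, with replicate 2 the highest. Over the whole list of body-shape collagens (20 tested), 12 were lower and 0 higher in affl-2 at 20 °C, with a median log2 change of −1.79 and a summed level of 3090 to 5470 CPM against 7770 to 9530 CPM in N2. Among them were bli-6 (−1.71 ± 0.22, adjusted p = 0.000321) and lon-3 (−1.87 ± 0.37, 0.00882). At 33 °C 10 were lower and 0 higher, with a median of −1.33 and sums of 5540 to 6540 CPM against 9730 to 13700 CPM. Of all genes tested, 7.29% were lower and 6.69% higher at 20 °C, and 9.57% and 10.1% at 33 °C. Whether animals of the groups stood at different points of the molting cycle was not tested, and its part in the nas-37 difference was not tested. In whole animals, fewer cells of a type and less RNA per cell cannot be told apart.

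**Figure D4:**
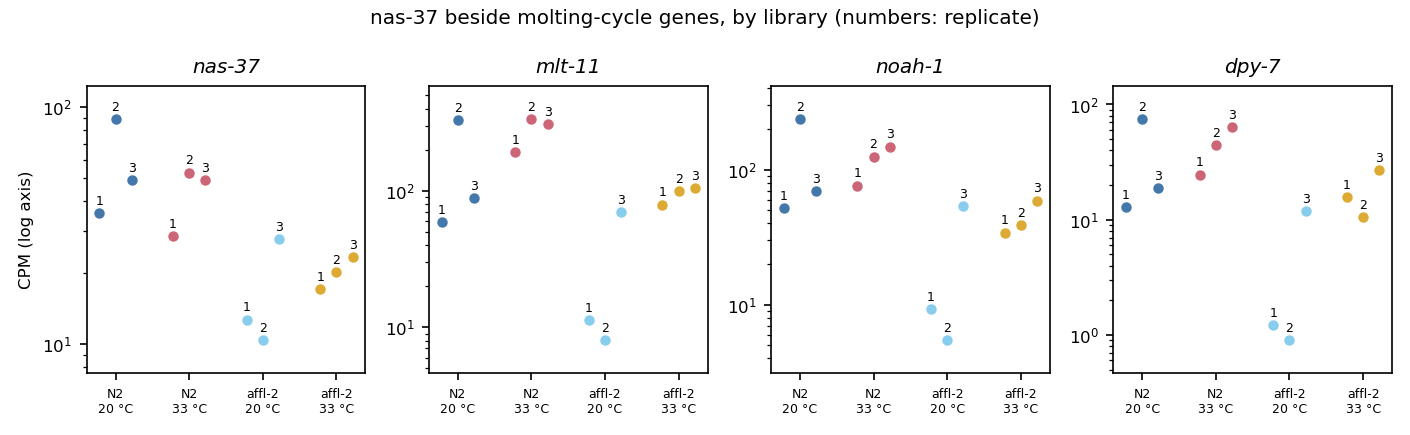
CPM of nas-37 and of 3 molting-cycle genes in each library (log axes, a different range per panel), with the replicate number beside each point. In unheated N2 replicate 2 is highest in all 4 panels, at 88.9 CPM for nas-37 and 329 CPM for mlt-11, and in unheated affl-2 replicate 2 is lowest and replicate 3 highest.

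nas-37 has 2 transcripts in the tables, C17G1.6a of 2539 bases and C17G1.6b of 2299 bases. By kallisto's estimates C17G1.6a took 60.5, 67.21 and 69.75% of the gene's counts in unheated N2 and 55.03, 66.78 and 76.38% in heated N2. In unheated affl-2 the shares were 15.53, 44.77 and 59.95%, and in heated affl-2 68.57, 60.68 and 79.63%. The unheated mutant libraries thus reached from below all others up into the range of heated N2, and no test was made of these estimated shares. The other molting protease gene, nas-36 (C26C6.3, chromosome I), stood at 67.3, 49.6 and 62.6 CPM in N2 at 20 °C and at 19.6, 42.7 and 59.0 CPM in unheated affl-2. These overlap, and neither that difference (−0.57 ± 0.3, adjusted p = 0.236) nor that after heat shock (0 ± 0.3, adjusted p = 0.999) passed. nas-15 (T04G9.2, chromosome X), at 41.5, 71.8 and 53.8 CPM in N2 at 20 °C and 25.9, 16.2 and 41.1 CPM in unheated affl-2, passed narrowly (−1.01 ± 0.3, adjusted p = 0.0492). Its groups were barely apart, and the call was lost in 14 of 20 alternatives, with adjusted p up to 0.167. The libraries whose omission ended it were unheated N2 replicates 2 and 3, unheated affl-2 replicates 1 and 2 and all 6 heated libraries (log2 differences from −1.03 to −0.73).

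Of the higher members, nas-9 and nas-11 differed at high counts. nas-9 (C37H5.9, chromosome V, minus strand, 4836027 to 4840013) stood at 12.8, 14.6 and 11.4 CPM in N2 at 20 °C and 40.3, 40.1 and 38.4 CPM in unheated affl-2. The mutant libraries lay close together at 3.06-fold the N2 level (1.62 ± 0.2, adjusted p = 0.000173). After heat shock nas-9 stood at 10, 12.8 and 6.65 CPM in N2 and at 34, 23.2 and 32.4 CPM in affl-2 (1.6 ± 0.2, adjusted p = 0.000114). nas-11, with the values given above, was higher by 0.98 ± 0.11 at 20 °C (adjusted p = 0.000106) and 1.03 ± 0.11 at 33 °C (adjusted p = 2.99e-05). The lowest mutant library of nas-11, 61.7 CPM after heat, lay above the highest N2 library, 51.1 CPM without heat. nas-11 shares 163 of its 1778 exonic bases with smf-2 on the other strand, a gene with 54 counts over all 12 libraries against 15302 for nas-11.

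nas-33 was higher in the mutant by 1.66 ± 0.21 at 20 °C (adjusted p = 0.000226) and by 1.5 ± 0.24 at 33 °C (adjusted p = 0.000784). Its lowest heated mutant library (2.85 CPM, 59 counts) lay only just above the highest unheated N2 library (2.68 CPM, 57 counts). Heated mutants were not tested against unheated N2. nas-10 (K09C8.3, chromosome X, minus strand, 10960914 to 10963503) was close to absent in N2, at 0.268, 0.047 and 0.0984 CPM unheated and 0.0561, 0.0598 and 0.114 CPM heated. Mutants held 0.873, 1.23 and 2.39 CPM unheated and 1.11, 1.74 and 2.86 CPM heated, all above every N2 library. With no more than 6 counts in any N2 library, nas-10 passed the filter on low counts only through the mutant groups, where it is high. The summed counts were 94 in affl-2 against 9 in N2 at 20 °C, a depth-scaled ratio of 10.7 with an exact 95% counting interval of 5.38 to 24, and 120 against 4 at 33 °C, a ratio of 24.5 (9.33 to 91.4). The edgeR log2 changes were 3.36 ± 0.59 (adjusted p = 0.00204) and 4.52 ± 0.68 (adjusted p = 0.000473). K09C8.2, which shares 29 exonic bases with nas-10, had 2 counts over all libraries, and K10C2.6, which shares 85 with nas-33, had 1.

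nas-38, the gene tied to molt-associated sleep (F57C12.1, chromosome X, 558157 to 563708), stood at 44.1, 40.3 and 42.7 CPM in N2 at 20 °C and at 45.1, 73.0 and 77.1 CPM in unheated affl-2. After heat shock it stood at 44.6, 33.7 and 48.9 CPM in N2 and at 64.2, 73.7 and 74.9 CPM in affl-2. The mutant libraries were the higher ones in both cases, with unheated affl-2 replicate 1 only just so, and the log2 differences were 0.62 ± 0.18 (adjusted p = 0.0335) and 0.74 ± 0.18 (adjusted p = 0.0114). The call at 20 °C was lost without any 1 of the 3 unheated N2 libraries (0.58 to 0.7, adjusted p 0.0617 to 0.098), without unheated affl-2 replicate 2 (0.54, 0.124) or 3 (0.53, 0.0749), and with only the 6 unheated libraries in the fit (0.64, 0.0619), and that at 33 °C without heated N2 replicate 2 (0.6, 0.0548). nas-5 (T23H4.3, chromosome I) stood at 2.77, 2.87 and 2.31 CPM in N2 and, higher throughout, at 4.27, 4.17 and 4.3 CPM in affl-2 at 20 °C (0.68 ± 0.18, adjusted p = 0.0219), a call lost without unheated N2 replicate 3 (0.59, 0.0991). At 33 °C it stood at 2.52, 3.23 and 2.67 CPM in N2 and at 3.47, 3.67 and 2.71 CPM in affl-2, which overlap (0.23 ± 0.18, adjusted p = 0.384).

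nas genes lie on all 6 chromosomes, with 15 on chromosome V, 8 on X, 5 on II, 4 on IV and 3 each on I and III. On chromosome V nas-20, nas-21 and nas-22 follow each other at distances of 254 and 799 bases, and nas-16, nas-18, nas-17 and nas-19 at 2925, 1198 and 527 bases. A stretch of 68214 bases separates the groups. The second group held no more than 4 counts in all 12 libraries, all of them in nas-19. Within the first group the neighbours differed: nas-20 and nas-21 were lower in affl-2, while nas-22 stood at 14.3, 10.9 and 12.9 CPM in N2 at 20 °C and 10.9, 16.1 and 14.2 CPM in unheated affl-2, which overlap (0.11 ± 0.2, adjusted p = 0.771). After heat shock nas-22 was at 9.02, 7.11 and 11.3 CPM in N2 and 15.0, 10 and 14.4 CPM in affl-2. This difference passed under the replicate block of exchanged numbers (0.52 ± 0.13, adjusted p = 0.00591) and not in the main fit (0.53 ± 0.2, adjusted p = 0.0827). It also passed with library size alone and without heated N2 replicate 3 or heated affl-2 replicate 2. Under that block nas-22 also fell with heat in N2 (−0.49 ± 0.13, adjusted p = 0.00823), as it did with library size alone.

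In all, 17 of the 30 tested members passed in at least 1 comparison and 13 in none. The share of all genes tested that passed in at least 1 of the 5 comparisons was not counted. The 17 of 30 can therefore not be read as a trait of the family. The 13 (nas-4, nas-6, nas-7, nas-8, nas-12, nas-13, nas-14, nas-22, nas-23, nas-28, nas-30, nas-32 and nas-36) had log2 changes in the comparisons of a pair of groups between −0.9 (nas-12, affl-2 against N2 at 33 °C) and 0.71 (nas-28, heat shock in affl-2), and interaction values from −0.19 (nas-7) to 0.78 (nas-30). Of the 13, 9 passed in some comparison under at least 1 alternative, and nas-4, nas-8, nas-23 and nas-32 under none. Both pharyngeal protease genes are among them. nas-6 stood at 8.59, 10 and 10.2 CPM in N2 at 20 °C and 4.8, 5.11 and 9.08 CPM in unheated affl-2 (−0.6 ± 0.24, adjusted p = 0.112), and it passed as lower under the replicate block (−0.63 ± 0.18, adjusted p = 0.0191), as did nas-13 (−0.58 ± 0.17, adjusted p = 0.025). nas-12 passed as lower at 33 °C with that block (−0.89 ± 0.32, adjusted p = 0.046), as it did with DESeq2 and without unheated N2 replicate 2 or heated affl-2 replicate 2. F01G10.6, which shares 60 of the 1258 exonic bases of nas-12 on the other strand, was itself lower in affl-2 at 33 °C (−1.47 ± 0.35, adjusted p = 0.00974) and at 20 °C (−1.3 ± 0.34, 0.0209). nas-7 ranged from 24.1 to 59.7 CPM over all libraries, with its largest difference after heat shock between genotypes (−0.46 ± 0.21, adjusted p = 0.133), which passed with only the 6 heated libraries in the fit and without unheated affl-2 replicate 1. Without that library nas-30 also passed at 33 °C. Beside these, pharynx marker genes (12 tested) had 0 higher and 1 lower in affl-2 at 20 °C and 0 higher and 4 lower at 33 °C, with sums of 884 to 910 CPM against 890 to 1310 CPM and of 1120 to 1260 CPM against 1450 to 1600 CPM in N2. Of all genes tested, 6.69% were higher and 7.29% lower at 20 °C, and 10.1% and 9.57% at 33 °C. The part of the amount of pharynx tissue in the nas-6 and nas-7 values was not tested.

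Other genes of extracellular proteolysis and the cuticle were read from lists written for this purpose. Of the astacins under other names, toh-1 fell with heat in N2 (−1.22 ± 0.21, adjusted p = 0.000841) and in affl-2 (−0.91 ± 0.2, adjusted p = 0.00651), while dpy-31 did not pass (0.09 ± 0.13 in N2, adjusted p = 0.684) and hch-1 had too few counts to be tested. Among 16 other secreted and membrane metalloproteases tested, 2 rose and 2 fell with heat in each genotype. Of all genes, 9.52% rose and 12% fell in N2, and 10.6% and 10.8% in affl-2, so no response of the list is read from this. The ADAMTS-type gene adt-1 rose by 1.71 ± 0.3 in N2 (adjusted p = 0.00164) and adm-2 by 0.61 ± 0.13 (0.00383), and adt-2 fell by 0.44 ± 0.1 (0.00451). At both temperatures 3 of the 16 were higher in affl-2 and 0 lower, with zmp-3 at 1.51 ± 0.23 (adjusted p = 0.00101), zmp-4 at 1.11 ± 0.15 (0.000396) and adt-3 at 0.7 ± 0.1 (0.000511) at 20 °C. Of 5 metalloprotease and other protease inhibitors, cri-2 was higher in affl-2 at both temperatures (0.61 ± 0.15, adjusted p = 0.0166, and 0.93 ± 0.16, adjusted p = 0.00107), as was timp-1 at 20 °C (0.83 ± 0.25, adjusted p = 0.0382).

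Of 26 molting factors tested, 2 rose and 2 fell with heat in N2 and 2 rose and 1 fell in affl-2. Of all genes, 9.52% rose and 12% fell in N2, and 10.6% and 10.8% in affl-2, so no response of the list is read from this. The kinase gene nekl-2 rose by 1.46 ± 0.13 in N2 (adjusted p = 2.42e-06) and the endocytic receptor gene lrp-1 by 1.14 ± 0.24 (0.00454), and the nuclear receptor gene nhr-85 fell by 1.03 ± 0.13 (6.82e-05). Between genotypes 3 were lower and 0 higher at 20 °C, namely mlt-8 (−0.95 ± 0.28, adjusted p = 0.0447) and the cathepsin genes cpz-1 (−0.5 ± 0.14, 0.0289) and cpl-1 (−0.52 ± 0.15, 0.031), and at 33 °C 2 were lower and 1 higher. Of all genes, 7.29% were lower and 6.69% higher at 20 °C, and 9.57% and 10.1% at 33 °C. A further list held 12 genes written down for the processing and crosslinking of cuticle collagens, not all of them enzymes. In it the proprotein convertase gene kpc-1 rose with heat (2.08 ± 0.11 in N2, adjusted p = 5.57e-09) and doxa-1 fell (−0.85 ± 0.16, 0.0017), with the same count of 1 and 1 in affl-2. There 2 were lower in affl-2 at 20 °C, the collagen prolyl hydroxylase subunits dpy-18 (−1.08 ± 0.23, adjusted p = 0.00863) and pdi-2 (−0.72 ± 0.18, 0.0151), and 4 were lower and 1 higher at 33 °C. In the DBL-1 pathway, the BMP-like pathway that sets body size, 12 genes were tested, of which 1 rose and 4 fell with heat in N2 and 1 rose and 2 fell in affl-2. The ligand gene dbl-1 rose by 0.78 ± 0.12 in N2 (adjusted p = 0.000376), and the receptor gene sma-6 (−0.81 ± 0.14, 0.000609) and the Smad gene sma-3 (−0.72 ± 0.14, 0.00235) fell. Between genotypes 1 was higher and 1 lower at 20 °C and 4 were higher and 0 lower at 33 °C. The shares of all genes given for the molting factors stand beside the counts of these lists too, and no list was tested as a set.

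Counts of tissue markers that passed stand beside the shares of all genes tested. With heat 9.52% of all genes rose and 12% fell in N2, and 10.6% and 10.8% in affl-2. In affl-2 against N2 6.69% were higher and 7.29% lower at 20 °C, and 10.1% and 9.57% at 33 °C. No marker list was tested as a set. Hypodermal marker genes, from the tissue that makes the cuticle, were read beside the nas genes. Of 10 tested, 0 passed between genotypes at 20 °C and 1 was lower at 33 °C, while 2 rose and 2 fell with heat in N2 and 1 rose and 2 fell in affl-2. Their summed level was 1800 to 2210 CPM in unheated N2, 1960 to 2290 CPM in unheated affl-2, 2610 to 2850 CPM in heated N2 and 2250 to 3110 CPM in heated affl-2. Muscle markers (8 tested) rose in 5 cases and fell in 1 with heat in N2, and rose in 7 and fell in 1 in affl-2. Their sums were 9820 to 13700 CPM before and 18400 to 20000 CPM after heat in N2. Of these sums unc-54 alone made up a mean of 4900 CPM before and 9670 CPM after. In N2 hlh-1 fell (−0.97 ± 0.21, adjusted p = 0.00404), and unc-27 and lev-11 did not pass. Intestinal markers (9 tested) fell in 3 cases and rose in 0 with heat in N2, with sums of 5410 to 6530 CPM before and 4690 to 5860 CPM after. Neuronal markers (10 tested) fell in 5 cases and rose in 1 with heat in N2, with sums of 469 to 564 CPM before and 493 to 532 CPM after, and fell in 3 and rose in 2 in affl-2. Pharynx markers rose in 4 cases and fell in 1 with heat in N2, and rose in 3 and fell in 1 in affl-2. Between genotypes at 20 °C intestinal markers were lower in 2 cases and higher in 0, with sums of 3610 to 4520 CPM in affl-2. The 2 were asp-1 (mean of 3180 CPM in N2 and 1640 CPM in affl-2) and cpr-6 (700 and 326 CPM). The median log2 change of the 9 intestinal markers was 0.01. Germline markers (10 tested) were lower in 4 cases and higher in 0 (2470 to 3420 CPM in affl-2 against 3680 to 3960 CPM in N2). The part of these marker changes in the nas changes was not tested.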

How the data were processed

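Poly(A) RNA was sequenced as single reads of 50 nt after fragmentation to about 200 nt, per the labels' protocols, with a library kit that keeps no strand, so reads of overlapping or antisense genes cannot be told apart. The authors' deposited tables, made with kallisto, whose version is not given in the sources used here, after bcl2fastq 1.8.4 against build WBcel235, per the submitters' processing notes, give estimated counts, TPM and effective length for 35862 transcripts. Here the deposited estimated counts were summed per gene and rounded. Deposited TPM values were summed for levels and, with effective lengths, used for length offsets. Symbols came from the Ensembl release 115 annotation of WBcel235 (21842 of 22010 genes matched) and, for nas-40, from the RefSeq gene table. Protein and promoter sequences were not used here.

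Of 22010 genes, 15386 passed filterByExpr (minimum count 10) and 6624 were set aside. edgeR 4.0.16 in R 4.3.3 fitted 4 group means to 12 libraries (TMM scaling, robust quasi-likelihood, 8 residual degrees of freedom and a common coefficient of biological variation of 0.147). The fit was also run on simulated counts without pairing of replicates, with changes placed only in genes above a minimum count. No result here rests on that run. Benjamini-Hochberg adjustment ran over all genes tested in each of 5 comparisons, and a gene passed at 0.05. CPM are scaled by TMM, the standard error of a log2 change was derived from its F statistic, and counting intervals cover counting error only, since reads carried no molecular identifiers. The members, gene lists and the rule that gives each library's value for members that passed were chosen with earlier results of these data known. Alternatives were other scalings, no filter, DESeq2 1.42.0, length offsets, only the 6 libraries compared, a replicate block and leaving out each library.

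The replicate numbers were checked for pairing by the correlation of deviations from group means. With the numbers of the titles, 13 of 18 same-numbered pairs were above 0.1 (−0.341 to 0.351). With unheated affl-2 replicates 1 and 2 exchanged, as their description labels and files name them, 18 of 18 were (0.116 to 0.351), so the exchanged numbers were taken to pair the libraries. The main fit, which gave the calls, standard errors and p-values above unless said otherwise, leaves this pairing out. With the exchanged block, members passing with heat numbered 10 in place of 8 in N2 and 12 in place of 9 in affl-2. Between genotypes they numbered 13 in place of 11 at 20 °C and 11 in place of 9 at 33 °C.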

Additional observations from a re-analysis of the deposited data

How the results depend on the processing

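Of 37 changes of a nas gene that passed, 28 kept their direction and their side of the threshold in every alternative that gave a value (20, or 19 for nas-24 with heat in N2, which had too few counts to be tested with only the 6 libraries compared), 9 lost significance in at least 1, and none changed sign. The 28 include nas-10 between genotypes at both temperatures and nas-24 with heat in N2. Since these passed the filter on low counts only through the groups where they are high, their holding is no independent support. The 9 were nas-33 with heat in N2, nas-24 with heat in affl-2, nas-5, nas-15, nas-37 and nas-38 between genotypes at 20 °C, and nas-21, nas-27 and nas-38 at 33 °C. Neither replicate block lost a call (37 of 37 held in each). With the replicate block of exchanged numbers the members higher with heat in affl-2 numbered 3 in place of 1, and the calls it added are given with the results; the numbers of the titles as a block added nas-29 with heat in affl-2 and nas-6 and nas-13 at 20 °C. The members higher with heat numbered 0 in N2 and 0 in affl-2 with only the 6 libraries compared, where nas-24 had too few counts to be tested in either genotype. Members higher with heat in affl-2 numbered 0 with DESeq2 and 0 to 4 when 1 library was left out. The members lower in affl-2 at 20 °C numbered 3 with only the 6 libraries compared and 3 to 9 with 1 library left out, and those at 33 °C 2 to 5. The change of nas-37 with heat, which passed in neither genotype, ran from −0.64 to 0.04 in N2 (0.04 without unheated N2 replicate 2) and from −0.01 to 0.77 in affl-2 (−0.01 without unheated affl-2 replicate 2). The cause was not tested. Counts limit nas-10, nas-21 and nas-24, and 3 libraries per group limit the rest.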
